A study of Homo sapiens with 6 samples.

Results

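The genes described here are 10 feedback genes and inhibitors of the Wnt pathway, NKD1, NKD2, DACT1, DACT2, AXIN2, LGR5, RNF43, ZNRF3, DKK1 and NOTUM, in HepG2 cells exposed to TGFβ. They are 10 of the 57773 genes in the count table and were found there by symbol. The group was chosen by measured values, because the reads of NKD1, DACT2 and AXIN2 in these same cultures were known when it was proposed. Their differences between treatments are therefore a description and not independent evidence. Of the 10 genes, 9 had enough reads to be among the 22747 genes tested, and DACT1 did not.

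HepG2, a human hepatoblastoma cell line, is known to carry an activating deletion in CTNNB1, the gene of β-catenin. RNA was sequenced from 3 cultures given vehicle and 3 cultures given TGFβ ligand at 5 ng/mL, each for 3 h, in serum-free medium per the study's methods. All 6 cultures are of the same line, so every comparison is within 1 genetic background with active β-catenin. The question was which transcripts differ shortly after TGFβ is added. Cultures carry the numbers 1 to 3 in both groups, and same-numbered cultures deviated together, so fits with the number as a block are given where they change a call.

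Reads assigned to genes numbered from 60815385 to 100099136 in the 6 libraries, and no library stood apart in the share held by its 10 most abundant genes (7.319% to 7.965%). The TGFβ targets SMAD7, SKIL and PMEPA1 rose by 1.72, 2.45 and 4.30 in log2(FC), which checks the treatment labels. All 9 hepatocyte markers were tested and 0 were called by edgeR (2 lower with the block). Their sum was 34100 to 37900 CPM (reads per 1000000, scaled by edgeR's TMM method) with vehicle and 32700 to 36600 CPM with TGFβ. Of 7 fibroblast and stellate cell markers 4 had under 30 reads in all, and their sum was 52.5 to 57.3 CPM with vehicle and 62.7 to 71.3 CPM with TGFβ. None of the 3 tested was called, and COL1A1 and PDGFRB were called higher with the block. Their part in the results on the Wnt genes was not tested. The defining endothelial marker KDR and the T cell marker CD3E had 0 reads in every culture.

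In the canonical Wnt pathway a secreted Wnt protein binds Frizzled and LRP receptors, Dishevelled is recruited, and the complex that marks β-catenin for destruction is held back. β-catenin then enters the nucleus and activates genes with TCF/LEF factors. Many of those target genes encode proteins that restrain the pathway at a different step each, which makes a negative feedback loop. In the liver the pathway is known for setting the gene program of hepatocytes next to the central vein, and mutations that keep β-catenin active are common in liver tumors.

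The region from 1000 bases before to 100 bases after the annotated start site of each gene was searched in GRCh37 (hg19), on both strands, for words of both pathways. The TCF/LEF word was CTTTG followed by 2 bases that are each A or T, and the SMAD word was GTCTG, with their reverse complements. In the 10 windows no match of one shared a base with a match of the other, and each match is only a match of letters. Of 21223 tested genes with an annotated start, 43.2% held a TCF/LEF word, 86.9% held a SMAD word and 37.3% held both. Among the 10 genes, 8 held a TCF/LEF word and 8 held a SMAD word. Both kinds were held by 6 of them, NKD1, DACT1, DACT2, LGR5, DKK1 and NOTUM, which include genes with higher and with lower levels under TGFβ. RNF43 and ZNRF3 held 5 and 7 SMAD words and 0 TCF/LEF words, and NKD2 and AXIN2 held 1 and 2 TCF/LEF words and 0 SMAD words. The stretches below are shown because these genes carry the differences described next. They run 5′ to 3′ along the strand of the gene, and capitals mark the words.
NKD1, chr16:50581507-50581615, plus strand, words at −780, −756 and −718: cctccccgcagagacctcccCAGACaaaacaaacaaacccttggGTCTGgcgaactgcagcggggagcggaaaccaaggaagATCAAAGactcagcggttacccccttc
DACT2, chr6:168720651-168720697, minus strand, word at −220: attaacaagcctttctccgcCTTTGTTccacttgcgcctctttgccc
DACT2, chr6:168720555-168720599, minus strand, word at −122: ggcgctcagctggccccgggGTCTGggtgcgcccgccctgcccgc
AXIN2, chr17:63558583-63558629, minus strand, word at −843: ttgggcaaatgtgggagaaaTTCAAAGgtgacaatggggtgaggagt
LGR5, chr12:71832977-71833058, plus strand, words at −581, −556 and −544: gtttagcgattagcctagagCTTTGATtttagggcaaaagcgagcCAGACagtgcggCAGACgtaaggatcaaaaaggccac
RNF43, chr17:56495045-56495089, minus strand, word at −174: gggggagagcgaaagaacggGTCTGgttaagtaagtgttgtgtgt
NOTUM, chr17:79919747-79919793, minus strand, word at −710: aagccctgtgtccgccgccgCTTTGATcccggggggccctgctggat

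In the NKD1 stretch a TCF/LEF word lies downstream of a pair of SMAD words. In LGR5 1 TCF/LEF word and 2 SMAD words fall within 82 bases. Positions count from the start of the annotated main transcript. That start lay within 66 bases of the gene's end in the count table for 8 of the genes, and 653 bases away for NOTUM and 3995 bases away for DACT1, so the windows of those last genes may not be the ones in use.

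**Figure D1:**
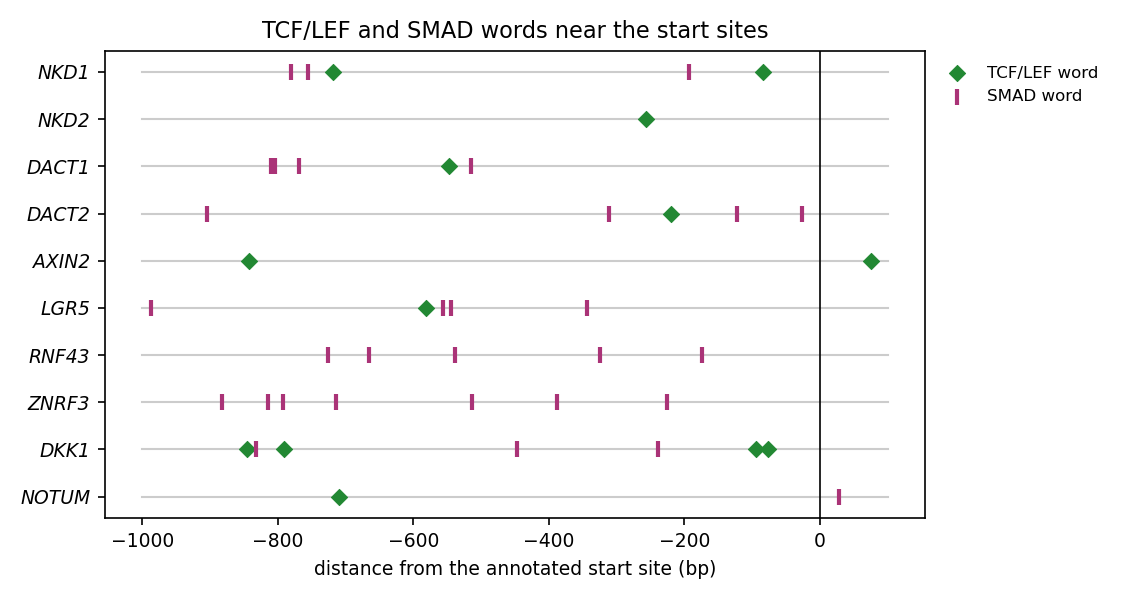
Position of TCF/LEF words (diamonds) and SMAD words (ticks) in base pairs from the annotated start site for the 10 genes, each on its own line from −1000 to 100. NKD1, DACT1, DACT2, LGR5, DKK1 and NOTUM hold both kinds, RNF43 and ZNRF3 hold SMAD words and 0 TCF/LEF words, and NKD2 and AXIN2 the reverse.

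Of the 9 tested genes, 3 were called higher with TGFβ (NKD1, DACT2 and LGR5) and 1 was called lower (RNF43) at an FDR under 0.05 (quasi-likelihood test of edgeR, Benjamini-Hochberg adjusted). Over all tested genes 3.11% were called higher and 1.01% lower. With the replicate block 5 of the 9 genes were called higher and 3 lower, beside 8.08% and 3.75% of all tested genes. The groups did not overlap for 6 of the 9 genes, 3 higher (NKD1, DACT2, LGR5) and 3 lower (RNF43, ZNRF3, DKK1), where 10.4% and 8.23% of all tested genes had no overlap. Since the genes were chosen with these values known, nothing is read from those shares. The median log2(FC) was 0.21 over the 9 genes and −0.005 over all tested genes. With the block the genes called higher were NKD1, DACT2, LGR5, AXIN2 and NOTUM, and those called lower were RNF43, ZNRF3 and DKK1.

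NKD1 (ENSG00000140807, chr16:50582241-50670647, plus strand) encodes Naked cuticle homolog 1, which binds Dishevelled and restrains Wnt signaling. It had 22608, 20522 and 15655 reads in vehicle cultures 1, 2 and 3, and 55513, 43591 and 38386 reads in the TGFβ cultures of the same numbers. Normalized, these were 256, 248 and 254 CPM with vehicle and 573, 542 and 527 CPM with TGFβ. The vehicle cultures lay within 8 CPM of each other, and every TGFβ culture was far above them. The mean went from 253 ± 4.44 to 547 ± 23.6 CPM (SD, n = 3 each), a 2.17-fold rise with a log2(FC) of 1.11 (SE 0.07, edgeR FDR = 3.73e-05). Same-numbered cultures gave log2 ratios of 1.16, 1.13 and 1.05. NKD1 was not a low transcript before treatment: its mean vehicle CPM, not scaled by length, exceeded that of 97.4% of all tested genes.

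An antisense gene inside NKD1, RP11-401P9.6, had 1096, 873 and 631 reads with vehicle and 2502, 1942 and 1661 reads with TGFβ, a log2(FC) of 1.13 (SE 0.10, edgeR FDR = 0.000294). Its change was close in size to that of NKD1 with far fewer reads. Whether strand was used in counting is not given in the sources used here, so reads of NKD1 and of this antisense gene cannot be told apart. The other gene on the opposite strand of NKD1, RP11-401P9.1, had 14 to 81 reads per culture and was not called (log2(FC) 0.89, edgeR FDR = 0.477).

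DACT2 (ENSG00000164488, chr6:168693510-168720434, minus strand) encodes a Dapper family protein, which also binds Dishevelled and is known to promote the breakdown of TGFβ family receptors. Its reads numbered 141, 136 and 118 with vehicle, against 1211, 951 and 769 with TGFβ. These equal 1.60, 1.64 and 1.92 CPM with vehicle and 12.5, 11.8 and 10.5 CPM with TGFβ. The groups were far apart, and TGFβ culture 3 was the lowest of its group while vehicle culture 3 was the highest. The mean rose 6.78-fold, from 1.72 ± 0.173 to 11.6 ± 0.989 CPM (SD, n = 3 each), with a log2(FC) of 2.76 (SE 0.14, edgeR FDR = 1.5e-05). Ratios by culture number were 2.97, 2.85 and 2.46 on the log2 scale. With vehicle its mean CPM exceeded that of 36.0% of all tested genes. DACT2 had the largest log2(FC) of the 9 tested genes, but among them its mean CPM with TGFβ exceeded only that of NKD2.

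A noncoding gene on the same strand, RP11-503C24.6 (chr6:168698749-168702794), lies within the span of DACT2 and held more reads than DACT2 in every culture. It had 827, 802 and 501 reads with vehicle and 2121, 2082 and 1692 reads with TGFβ, a log2(FC) of 1.38 (SE 0.11, edgeR FDR = 9.92e-05). Its fold was smaller than that of DACT2, and how reads in the shared span were assigned is not given in the sources used here.

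The other members of these families behaved otherwise. NKD2 (ENSG00000145506, chr5:1008944-1039058, plus strand) had between 43 and 88 reads in each culture. These are 0.997, 0.784 and 0.698 CPM against 0.815, 0.969 and 0.892 CPM, and the groups overlapped. Its log2(FC) was 0.10 (SE 0.22, edgeR FDR = 0.909), with ratios of −0.29, 0.31 and 0.35 by culture number. Counts this low leave a wide error, and no difference was detectable for NKD2. DACT1 (ENSG00000165617, chr14:59100685-59115039, plus strand) had 4, 0 and 0 reads with vehicle and 2, 4 and 2 reads with TGFβ, too few to be tested. Scaled by library size the ratio of its 8 reads to 4 was 1.86, with an exact 95% interval of 0.498 to 8.44 that covers counting error only. That interval includes the 6.78-fold rise of DACT2, so whether DACT1 differed from DACT2 cannot be told.

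**Figure D2:**
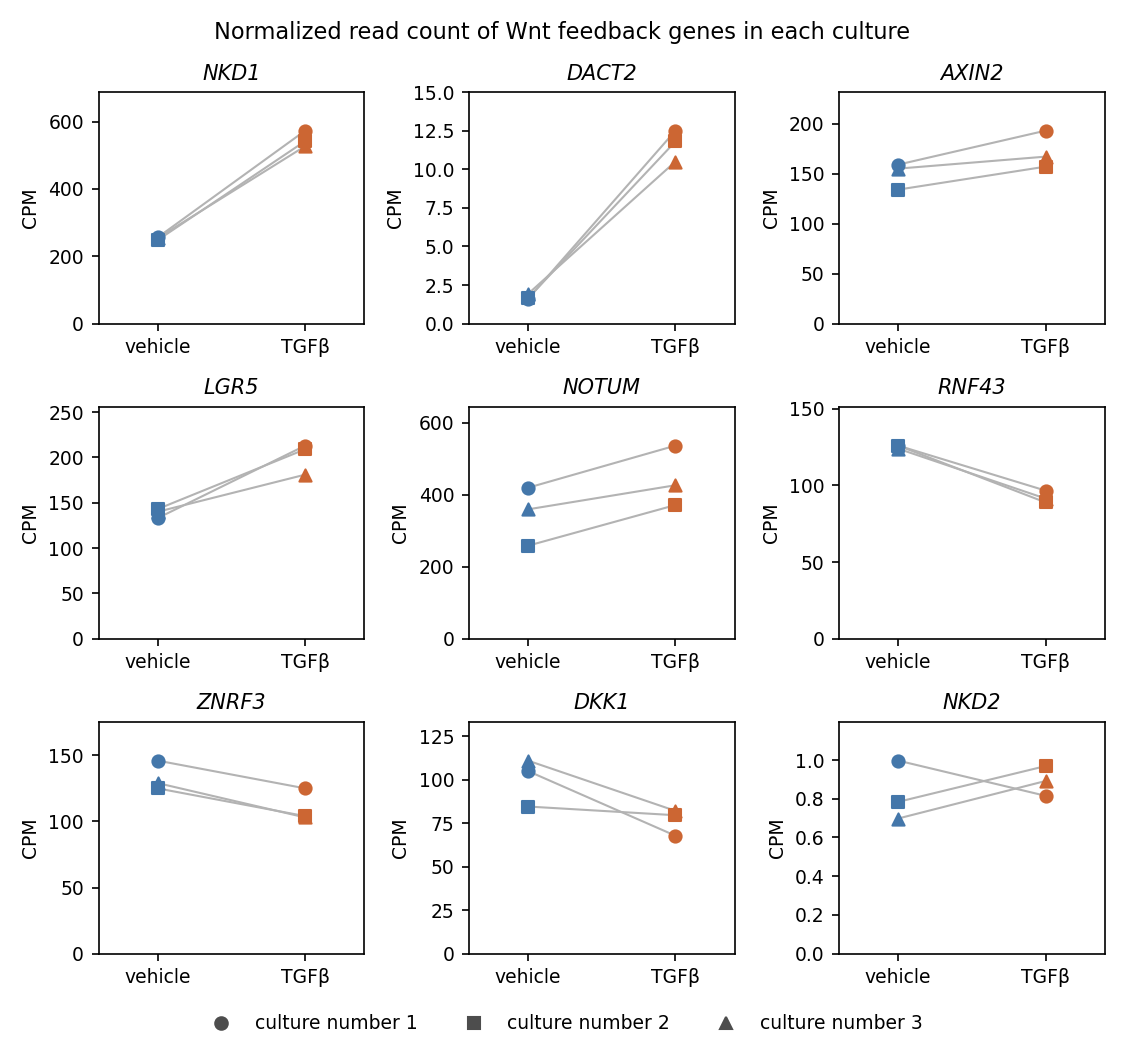
CPM (TMM-scaled reads per 1000000, each axis starting at 0) of the 9 tested genes in each culture, vehicle in blue and TGFβ in orange, with lines joining cultures of the same number. NKD1 (253 to 547 CPM in the mean) and DACT2 (1.72 to 11.6 CPM) separate most, whereas AXIN2 and NOTUM rise along each line while the groups overlap.

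AXIN2 (ENSG00000168646, chr17:63524681-63557765, minus strand) encodes a scaffold of the β-catenin destruction complex and is a widely used reporter gene of β-catenin activity. It measured 159, 134 and 155 CPM in vehicle cultures 1, 2 and 3 and 193, 157 and 167 CPM with TGFβ. TGFβ culture 2 lay below vehicle culture 1, so the groups overlapped, although each TGFβ culture was above the vehicle culture of its own number. Means were 149 ± 13.4 and 172 ± 18.9 CPM (SD, n = 3 each), a log2(FC) of 0.21 (SE 0.10), and AXIN2 was not called (edgeR FDR = 0.417). With the replicate block it was called, at a log2(FC) of 0.20 (SE 0.05, edgeR FDR = 0.0245), from log2 ratios of 0.28, 0.23 and 0.10. The difference is thus small beside those of NKD1 and DACT2, and whether it passes the threshold depends on the pairing of the cultures. A gene overlapping AXIN2 on the same strand, CTD-2535L24.2, had a log2(FC) of 0.20 (edgeR FDR = 0.428).

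LGR5 (ENSG00000139292, chr12:71833550-71980090, plus strand) encodes a receptor for R-spondins, the secreted proteins that strengthen Wnt signaling, and marks stem cells in several epithelia. It measured 133, 143 and 140 CPM with vehicle and 213, 209 and 181 CPM with TGFβ. All TGFβ cultures were above all vehicle cultures, with TGFβ culture 3 the lowest of its group. The level rose 1.45-fold, from 139 ± 5.17 to 201 ± 17.4 CPM (SD, n = 3 each; log2(FC) 0.53, SE 0.08, edgeR FDR = 0.00491). The noncoding gene RP11-186F10.2 inside LGR5 had a similar log2(FC) of 0.48 (edgeR FDR = 0.0187), and TSPAN8, which overlaps the 5′ end on the opposite strand, one of 0.01 (edgeR FDR = 0.987).

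The ubiquitin ligases RNF43 and ZNRF3 remove Frizzled from the cell surface, and R-spondins with LGR receptors counteract them. RNF43 (ENSG00000108375, chr17:56429861-56494956, minus strand) measured 126, 126 and 124 CPM with vehicle and 96.6, 88.9 and 91.4 CPM with TGFβ. The vehicle cultures were nearly equal and all 3 TGFβ cultures lay below them. RNF43 dropped 1.36-fold, from 126 ± 1.13 to 92.3 ± 3.91 CPM (SD, n = 3 each; log2(FC) −0.44, SE 0.07, edgeR FDR = 0.00486). Overlapping genes did not share this value: SUPT4H1 was at 0.05 (edgeR FDR = 0.834) and BZRAP1-AS1 at −0.18 (edgeR FDR = 0.512).

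ZNRF3 (ENSG00000183579, chr22:29279580-29453475, plus strand) measured 146, 125 and 129 CPM with vehicle and 125, 104 and 103 CPM with TGFβ. The highest TGFβ culture was just under the lowest vehicle culture, and culture 1 was the highest of both groups. The mean was 134 ± 11.1 CPM with vehicle and 111 ± 12.6 CPM with TGFβ (SD, n = 3 each; log2(FC) −0.27, SE 0.10), not called without the block (edgeR FDR = 0.216) and called with it (SE 0.05, edgeR FDR = 0.00339). The log2 ratios by number were −0.22, −0.27 and −0.33.

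DKK1 (ENSG00000107984, chr10:54074056-54077802, plus strand) encodes a secreted inhibitor that binds the LRP coreceptors. It measured 105, 84.6 and 111 CPM with vehicle and 67.8, 79.6 and 82.1 CPM with TGFβ. The groups did not overlap, yet vehicle culture 2 and TGFβ culture 3 were close. The log2(FC) was −0.39 (SE 0.11), with the mean at 100 ± 14.0 CPM with vehicle and 76.5 ± 7.66 CPM with TGFβ (SD, n = 3 each), and DKK1 was not called (edgeR FDR = 0.106). It was called with the replicate block (edgeR FDR = 0.0487) and without vehicle culture 2 (log2(FC) −0.51, edgeR FDR = 0.0397). Pair 2 differed least, with log2 ratios of −0.63, −0.09 and −0.44 for the 3 numbers.

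NOTUM (ENSG00000185269, chr17:79910388-79919716, minus strand) encodes a secreted enzyme that removes the lipid from Wnt proteins and so inactivates them. It measured 419, 258 and 359 CPM with vehicle and 536, 371 and 426 CPM with TGFβ. Within each group culture 1 was highest and culture 2 lowest, and the groups overlapped. Means of 345 ± 81.7 and 444 ± 83.7 CPM (SD, n = 3 each) gave a log2(FC) of 0.36 (SE 0.18, edgeR FDR = 0.427). The block lowered the SE to 0.06, and NOTUM was then called at a log2(FC) of 0.38 (edgeR FDR = 0.00106), its ratios being 0.35, 0.53 and 0.25.

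**Figure D3:**
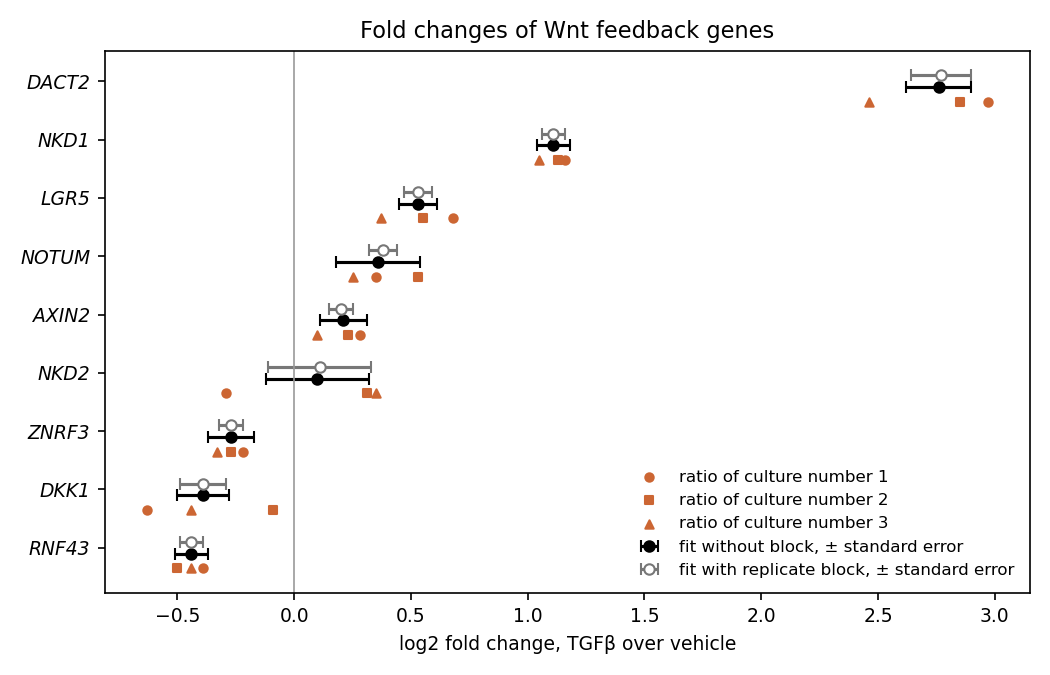
log2(FC) of TGFβ over vehicle for the 9 tested genes: filled circles are the fit without and open circles the fit with the replicate block, bars are ± 1 SE, and orange marks are the ratios of same-numbered cultures. The estimates hardly differ between fits (NOTUM 0.36 and 0.38), whereas the bars of NOTUM, AXIN2 and ZNRF3 shorten with the block, and NKD2 is the gene whose bars cross 0.

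Levels were compared between genes per length, on the deposited RPKM. In vehicle cultures NOTUM was highest at 94.4 ± 20.6 RPKM, followed by NKD1 at 42.5 ± 0.299, DKK1 at 37.5 ± 4.46, AXIN2 at 23.8 ± 1.63 and LGR5 at 21.9 ± 1.25 RPKM (SD, n = 3). ZNRF3 (15.8 ± 1.12 RPKM) and RNF43 (13.8 ± 0.385 RPKM) came next, and DACT2 (0.336 ± 0.0312 RPKM), NKD2 (0.227 ± 0.0409 RPKM) and DACT1 (0.00275 RPKM) were far lower. AXIN2 and LGR5 overlapped between cultures and have no order, while the other neighbors among the 9 tested genes did not overlap. With TGFβ, NOTUM (119 ± 22.5 RPKM) and NKD1 (89.8 ± 6.02 RPKM) kept the first places, and LGR5 (30.9 ± 3.62 RPKM) had a higher mean than DKK1 (27.9 ± 2.62 RPKM) and AXIN2 (26.7 ± 3.05 RPKM). The TGFβ cultures of LGR5 (26.7 to 33.1 RPKM), DKK1 (24.9 to 29.9 RPKM) and AXIN2 (24.8 to 30.2 RPKM) overlapped, so these genes have no order. DACT2 reached 2.22 ± 0.250 RPKM, above NKD2 at 0.239 ± 0.0250 RPKM but below RNF43 at 9.91 ± 0.511 RPKM. Whether a higher level reflects more cells with the transcript or more RNA in each cell cannot be told apart in bulk RNA.

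**Figure D4:**
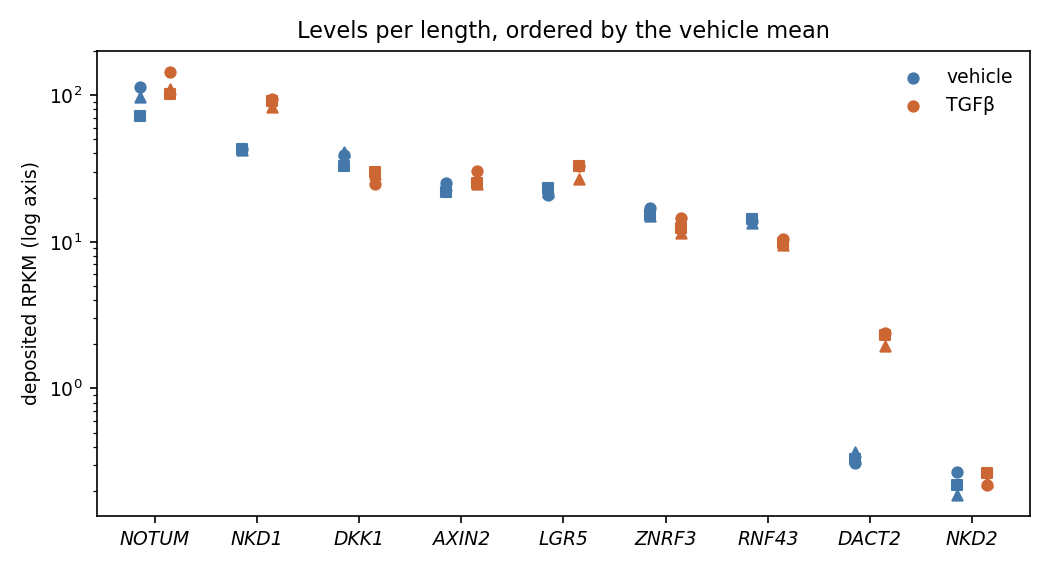
Deposited RPKM on a log axis for the 9 tested genes in each culture, vehicle in blue and TGFβ in orange, ordered by the vehicle mean, with symbols for the culture numbers. NOTUM is highest (94.4 RPKM in vehicle) and DACT2 leaves the level of NKD2 with TGFβ (0.336 to 2.22 RPKM).

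The genes most alike were those with the smallest root mean square difference in log2 CPM over the 6 cultures, each gene centered on its mean. For NKD1 these were IFFO2 (0.068), the overlapping RP11-401P9.6 (0.081) and FRMD8 (0.092). DACT2 was nearest to AC007362.1 (0.162), SKIL (0.186) and SPACA6P-AS (0.222). AXIN2 had the overlapping CTD-2535L24.2 (0.018), BCR (0.029) and MEX3A (0.033) as its nearest. SKIL, a repressor of SMAD activity and itself a TGFβ target, went from 23.3 ± 1.13 to 127 ± 17.8 CPM (SD, n = 3 each), a 5.45-fold rise.

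The other genes of the pathway were sorted into 6 lists by role, 111 genes of which 81 were tested. Of the 81, 13 were called higher and 4 lower by edgeR, and 22 and 6 with the replicate block, and the median log2(FC) was 0.14. Over all tested genes 3.11% were called higher and 1.01% lower by edgeR, and 8.08% and 3.75% with the block. The lists were chosen with earlier results of these data known, so nothing is read from those shares, here or for the single lists below. Of the genes named below, WNT11, WNT9A, FZD7, LRP5, BCL9L, TNFRSF19, BAMBI, GLUL, SLC1A2, DKK4, LRP6 and AXIN1 were chosen after their values were seen. So were CYP1A2, LECT2, TBX3, OAT, RHBG and CYP2E1.

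Among 21 Wnt ligands and release factors, 10 were tested, 3 were called higher and 0 lower, with a median log2(FC) of 0.09. WNT5B, a ligand best known for signaling without β-catenin, had 8, 7 and 4 reads with vehicle and 50, 57 and 44 reads with TGFβ. It rose from 0.0800 ± 0.0134 to 0.609 ± 0.0963 CPM (SD, n = 3 each; log2(FC) 2.88, SE 0.32, edgeR FDR = 0.000819), at a very low level. WNT11, another such ligand, rose from 1.22 ± 0.226 to 3.84 ± 0.333 CPM (log2(FC) 1.66, edgeR FDR = 0.000855). WNT9A had a log2(FC) of 1.50 (edgeR FDR = 0.0331), but its call was lost on leaving out any 1 culture (edgeR FDR 0.0863 to 0.138). WNT3, the ligand gene with the highest mean CPM, was at 12.0 ± 1.15 and 12.7 ± 0.964 CPM (edgeR FDR = 0.845).

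Of 18 Wnt and R-spondin receptors 15 were tested, with 3 called higher, 1 called lower and a median of 0.17. FZD5, the Frizzled gene with the highest mean CPM over the 6 cultures, rose from 195 ± 5.62 to 334 ± 21.4 CPM (SD, n = 3 each; log2(FC) 0.77, SE 0.07, edgeR FDR = 0.000375). FZD7 rose from 0.634 to 1.54 CPM (log2(FC) 1.28, edgeR FDR = 0.0110), a call lost without vehicle culture 2 (edgeR FDR = 0.0658) or vehicle culture 3 (edgeR FDR = 0.0631). LRP5 had a log2(FC) of 0.42 at the margin (edgeR FDR = 0.0462), whereas LRP6 was at 0.02 (edgeR FDR = 0.954). The call of LRP5 was lost with total-count scaling (edgeR FDR = 0.0646) and by limma-voom (FDR = 0.0555). On leaving out 1 culture it passed without TGFβ culture 3 but without no other culture.

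LGR4, a paralog of LGR5, dropped from 180 ± 7.16 to 104 ± 7.41 CPM (SD, n = 3 each; log2(FC) −0.78, SE 0.08, edgeR FDR = 0.000424). Its values were 180, 187 and 173 CPM with vehicle and 113, 102 and 98.6 CPM with TGFβ. LGR4 and LGR5, receptors for the same ligands, therefore differed in direction, both with groups that did not overlap.

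Of 20 secreted or membrane modulators 8 were tested, 1 was called higher and 0 lower, and the median was 0.32. KREMEN1, a membrane receptor for DKK1, rose from 57.9 ± 4.48 to 77.0 ± 3.30 CPM (log2(FC) 0.41, edgeR FDR = 0.0175), a call lost without vehicle culture 2 or 3 or TGFβ culture 1 or 2 (edgeR FDR 0.0636 to 0.103). RSPO1, an R-spondin and the gene of highest mean CPM in the list, was at 73.7 ± 6.16 and 77.0 ± 3.82 CPM (edgeR FDR = 0.833), and DKK4 had a log2(FC) of −0.95 that was called with the block (edgeR FDR = 0.00987) and not without it (edgeR FDR = 0.0843).

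All 19 cytoplasmic transducers were tested, and 1 was called higher and 0 lower, with a median of 0.03. With the block 5 were called higher. TNKS2, a tankyrase that marks axins for breakdown, rose from 83.7 ± 2.83 to 107 ± 2.65 CPM (log2(FC) 0.35, edgeR FDR = 0.0169), and lost its call without vehicle culture 2 or 3 or TGFβ culture 1 or 2 (edgeR FDR 0.0552 to 0.109). CTNNB1, the gene of highest mean CPM in the list, was at 577, 534 and 513 CPM with vehicle and 649, 661 and 633 CPM with TGFβ. It was not called (log2(FC) 0.26, SE 0.07, edgeR FDR = 0.0978) but was with the block (edgeR FDR = 0.00476) and by DESeq2 (adjusted p = 0.0405). AXIN1, the paralog of AXIN2, had a log2(FC) of −0.07 (edgeR FDR = 0.834).

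All 13 TCF/LEF factors and nuclear partners were tested, with 2 called higher, 0 lower and a median of 0.30, and with the block 5 were called higher. TCF7, a TCF/LEF factor that is itself a target of the pathway, rose from 43.6, 42.6 and 45.7 CPM with vehicle to 61.1, 67.3 and 62.6 CPM with TGFβ (log2(FC) 0.53, SE 0.07, edgeR FDR = 0.00271). BCL9L was called at 0.35 (edgeR FDR = 0.0488) but missed the threshold with total-count scaling (edgeR FDR = 0.0606) and by limma-voom (FDR = 0.0558). It also missed it without any 1 culture except TGFβ culture 3 (edgeR FDR 0.0955 to 0.215). CHD8, a repressor of β-catenin targets and the gene of highest mean CPM in the list, had 172 ± 3.72 and 166 ± 7.61 CPM (edgeR FDR = 0.869).

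Of 20 other widely used β-catenin targets 16 were tested, with 3 called higher, 3 called lower and a median of 0.10. With the block 3 were called higher and 4 lower. CCND1 (cyclin D1) rose from 285 ± 6.67 to 456 ± 27.7 CPM (SD, n = 3 each; log2(FC) 0.68, SE 0.07, edgeR FDR = 0.000689). TNFRSF19 rose from 241 ± 21.8 to 344 ± 16.1 CPM (log2(FC) 0.51, edgeR FDR = 0.00734). BAMBI, a decoy receptor for TGFβ family ligands, had a log2(FC) of 0.78 (edgeR FDR = 0.00917) and lost its call without vehicle culture 3 (log2(FC) 0.71, edgeR FDR = 0.0560).

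MYC, which is also a known target of repression by TGFβ, went the other way, from 134, 141 and 128 CPM with vehicle to 65.4, 68.0 and 57.8 CPM with TGFβ (log2(FC) −1.08, SE 0.08, edgeR FDR = 9.92e-05). GLUL (glutamine synthetase) and SLC1A2 (a glutamate transporter), β-catenin targets of hepatocytes next to the central vein, were lower at −0.50 (edgeR FDR = 0.00774) and −0.80 (edgeR FDR = 0.0195). GLUL missed the threshold without vehicle culture 3 (log2(FC) −0.47, edgeR FDR = 0.0520), and SLC1A2 without vehicle culture 1 or 3 or TGFβ culture 2 (edgeR FDR 0.0632 to 0.0991). In the same list CYP1A2, LECT2 and TBX3 had a log2(FC) of 0.46, 0.35 and 0.07, and OAT and RHBG −0.06 and −0.12. None of these was called with or without the block, and CYP2E1 had too few reads to be tested. The called genes among these targets thus included some higher and some lower with TGFβ.

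**Figure D5:**
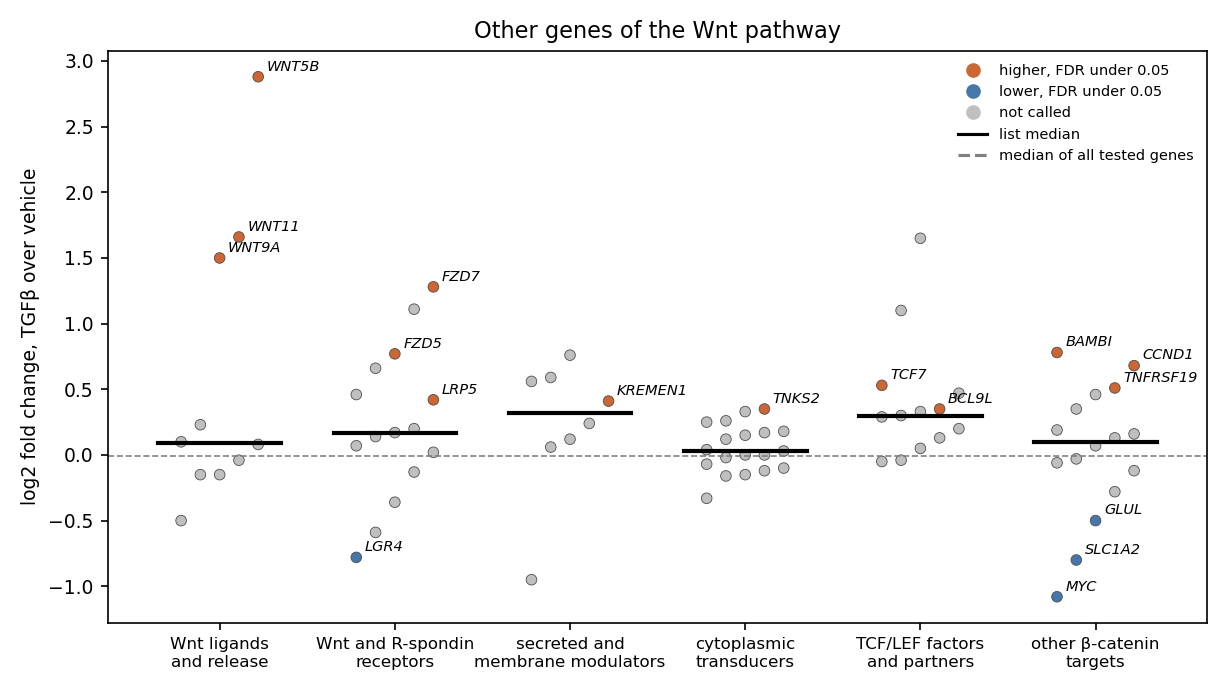
log2(FC) of TGFβ over vehicle for the 81 tested genes of the 6 pathway lists, each point a gene, orange called higher and blue called lower by edgeR at an FDR under 0.05, grey not called. Black bars are list medians, from 0.03 to 0.32, and the dashed line is the median of all tested genes at −0.005. WNT5B (2.88) and MYC (−1.08) are the extremes.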

How the data were processed

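RNA from 6 HepG2 cultures, 3 per group, was sequenced by the authors on HiSeq as paired reads from TruSeq v2 libraries, aligned to hg19 and counted per gene with MAPRseq. The submitters' processing notes name TopHat2 2.0.6 and HTSeq. The authors deposited for each culture the raw read count per gene and the RPKM. For the annotation release, the strand setting and the rule for overlapping genes, the sources used here give nothing. P-values set the difference between groups against the variation among these cultures, or, with the block, against what remains of it after culture number.

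Groups and culture numbers came from the labels. Differential expression was computed from the counts with edgeR 4.0.16 (R 4.3.3, limma 3.58.1): TMM, filterByExpr, the robust quasi-likelihood test with group alone, and FDRs (Benjamini-Hochberg) over the 22747 genes tested, called under 0.05. SEs are those implied by the test. The deposited RPKM were used only for levels between genes. An exact permutation test of 3 against 3 cultures cannot give a p below 0.1, so none was used. The script was tested on simulated counts.

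After subtracting group means, cultures of the same number correlated across genes at 0.227 to 0.366, and the others at −0.304 to 0.0101, so numbers 1 to 3 were taken to pair the cultures. The labels put cultures 1 and 2 of both groups on the same lane as their partner, and cultures 3 on different lanes. Chi-square per gene between replicates was 21.4 to 46.3, so each culture was counted as a separate sample.

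The 10 genes and the lists were chosen with earlier results of these data known. From each list the text names the called gene of smallest FDR in each direction and the gene of highest mean CPM. Of 5 endothelial markers 4 were matched in the table. Start sites came from GENCODE annotation on GRCh37. Only some of the promoter stretches that were examined are printed. Alternatives were limma-voom, DESeq2 1.42.0, its size factors in edgeR, scaling by totals, a filter of 10 reads in every library or none, the replicate block, and leaving out each culture.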

Additional observations from a re-analysis of the deposited data

How the results depend on the processing

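NKD1, DACT2, LGR5 and RNF43 kept their direction and call under all 13 alternatives. Of 117 recomputed values of the 9 tested genes, 109 kept direction and side of the threshold, 7 passed it newly and 0 lost it. Leaving out 1 culture, the log2(FC) of NKD2 ranged from −0.00 (without vehicle replicate 3, edgeR FDR = 1.00) to 0.25, and that of RSPO1 from −0.00 (without vehicle replicate 2, edgeR FDR = 0.998) to 0.12. DKK1 was also called without the filter (FDR = 0.0142, edgeR) and by DESeq2 (adjusted p = 0.0376).

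With the replicate block, which pairs cultures by number, 2690 genes were called over all, against 937 without it, with 8 of the 9 Wnt feedback genes and 28 pathway genes in place of 4 and 17. DESeq2 called 1415 genes. Leaving out 1 culture at a time gave 485 to 998 genes, 4 to 5 of the feedback genes and 8 to 17 pathway genes. The lowest counts came without vehicle replicate 3 (485 genes, 8 in the pathway), vehicle replicate 2 (518 and 11) and TGFβ replicate 2 (561 genes). These fits have fewer samples. Total-count scaling moved the median log2(FC) of all genes to −0.047. With 3 cultures a group, small differences such as that of AXIN2 are at the limit of what the design resolves, and DACT1 and NKD2 are limited by reads.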
